A study of Mus musculus with 2 samples.

Results

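The 9 genes Il10, Ebi3, Il12a, Entpd1, Nt5e, Adora2a, Fgl2, Nrp1 and Penk were examined as suppressive mediators of regulatory T cells (Tregs) and genes of the adenosine pathway. They were picked by name, with earlier results of these data known. All 9 were found among the 24346 gene symbols listed in each of the 2 deposited libraries. GFP+CD4+ cells were sorted from the spleen or the lung of Foxp3-DTR-GFP (FDG) mice on day 15 after bleomycin (BLM), a drug that injures the lung and leads to fibrosis. BLM (50 μg in 50 μl PBS) was given into the trachea of mice 10 to 16 weeks old. Both libraries therefore shared genotype and treatment and differed in tissue, and neither untreated mice nor GFP- cells are among them. In these mice GFP is made from the Foxp3 locus itself, so GFP+ cells are cells that transcribe the defining factor of Tregs. Cells of 3 mice were pooled for each tissue and sequenced as 1 library. Without replicates no test of a difference was possible, and p-values are not reported. The comparison asks which levels of these genes differ between lung Tregs and splenic Tregs of injured mice.

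Tregs restrain other immune cells by several routes. IL-10 (Il10) is a secreted cytokine that damps macrophages, dendritic cells and T cells, and IL-35 is a secreted pair of the proteins of Ebi3 and Il12a. On the cell surface, CD39 (Entpd1) cuts the danger signal ATP to AMP and CD73 (Nt5e) cuts AMP to adenosine, which acts through receptors such as that of Adora2a to raise cAMP in nearby T cells and in Tregs themselves. Fgl2 encodes a fibrinogen-like protein that Tregs can secrete, Nrp1 a coreceptor for semaphorins and VEGF that is widely used as a Treg marker, and Penk the precursor from which the opioid enkephalins are cut.

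All 9 genes had a higher value in the lung library than in the splenic library on the deposited scale, FPKM (read density scaled by transcript length and library depth). Of the 12094 symbols with at least 1 FPKM in either library, 51.5% were higher in lung. The ratios of lung to spleen ran from 1.19 for Nrp1 to 7.70 for Fgl2. Fgl2 and Il12a stood apart from the rest, at 7.70-fold and 6.67-fold, Ebi3 was just past 2-fold at 2.04, and the other 6 lay between 1.19 and 1.97. With both libraries rescaled to the same sum of FPKM (TPM), Entpd1 and Nrp1 became lower in lung while the other 7 remained higher. With lung values scaled to an equal level of Foxp3, only Fgl2 and Il12a remained higher. Ratios were taken after setting FPKM under 0.1 to 0.1, which altered none of the 9.

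Of the 9 genes, 3 were over 2-fold higher in lung, beside 17.8% of the 12094 symbols with at least 1 FPKM in either library. None of the 9 was over 2-fold lower, beside 15.5% of these symbols. None was over 20-fold higher, beside 3.27%. The 3 genes past 2-fold were Fgl2, Il12a and, at the line, Ebi3. On the log2 scale the 9 genes had a median ratio of 0.86, and the 12094 symbols had one of 0.03. The rescaling to TPM lowered every ratio of genes above the floor by 0.43 on the log2 scale, and the median of all symbols with it, so that the 9 genes had a median 0.82 above that of all symbols either way. Measured against the same median of all symbols, each of the 9 genes lay above it, from 0.22 for Nrp1 to 2.91 for Fgl2 on the log2 scale. The median of all symbols was -0.40 with TPM and -1.13 with the Foxp3 ratio set to 1. Shares of all symbols past 2-fold were not computed under these settings. Counts given below for these settings therefore stand beside these medians and not beside the shares above.

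**Figure D1:**
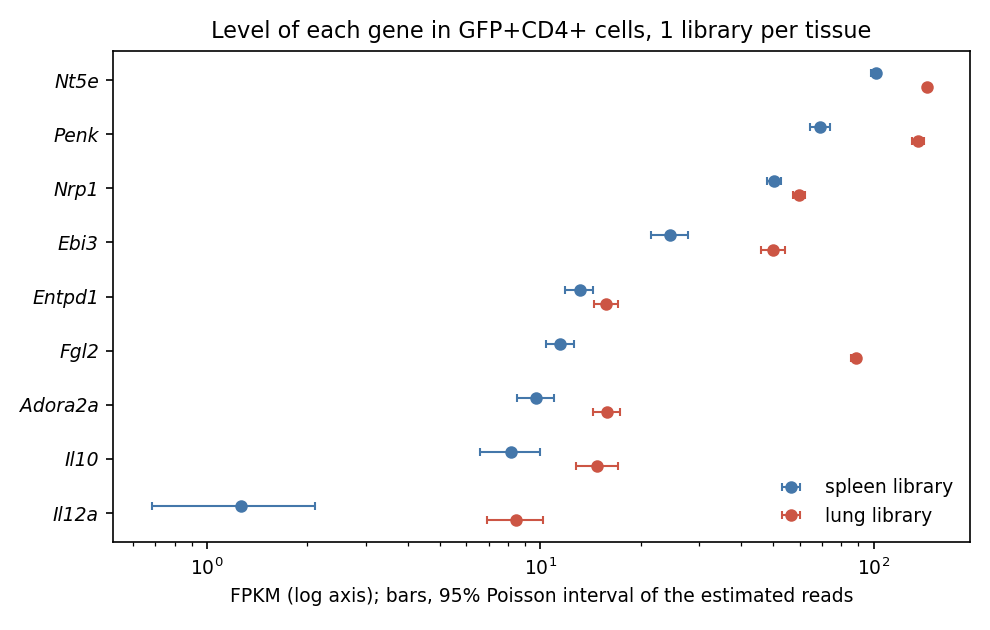
FPKM of each gene on a log axis, with blue points for the splenic library and red points for the lung library; bars are 95% Poisson intervals of the estimated reads and cover counting error only. Nt5e was the highest and Il12a the lowest of the 9 genes in both libraries, and the red and blue points are farthest apart for Fgl2 (11.5 and 88.4 FPKM) and Il12a (1.27 and 8.44 FPKM).

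To show the sequence before the starts of the 3 genes over 2-fold higher in lung, the 250 bases upstream of each RefSeq start (GRCm38.p6, plus strand) were searched for exact matches to 10 motifs on both strands. The motifs were a TATA box TATAAA, the cAMP response element TGACGTCA and its shorter core TGACG, AP-1 TGANTCA, NF-kB (GGG and CC with any 5 bases between), STAT TTCNNNGAA, IRF (GAAA repeated after any 2 bases), RUNX TGTGGT, forkhead TGTTTAC and the E-box CACGTG. The cAMP element contains its core, so these 2 overlap. Capitals mark the matches. Il12a has a start upstream and a start within its first intron, and both are shown.
Fgl2, chr5:21372423-21372672: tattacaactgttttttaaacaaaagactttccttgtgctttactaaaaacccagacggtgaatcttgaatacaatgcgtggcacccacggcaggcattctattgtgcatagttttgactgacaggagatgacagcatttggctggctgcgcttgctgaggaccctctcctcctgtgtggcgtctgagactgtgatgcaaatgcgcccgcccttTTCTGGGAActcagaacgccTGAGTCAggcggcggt
Ebi3, chr17:55952373-55952622: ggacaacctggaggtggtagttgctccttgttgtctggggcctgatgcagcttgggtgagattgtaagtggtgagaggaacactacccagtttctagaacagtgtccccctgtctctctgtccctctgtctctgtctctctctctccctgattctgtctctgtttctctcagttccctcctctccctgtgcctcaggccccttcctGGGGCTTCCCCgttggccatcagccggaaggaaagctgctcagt
Il12a upstream start, chr3:68690394-68690643: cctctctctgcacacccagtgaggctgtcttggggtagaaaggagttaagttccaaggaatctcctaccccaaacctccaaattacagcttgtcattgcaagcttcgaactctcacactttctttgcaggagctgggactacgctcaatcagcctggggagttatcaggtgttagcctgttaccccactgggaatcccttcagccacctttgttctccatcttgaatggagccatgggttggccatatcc
Il12a intronic start, chr3:68691174-68691423: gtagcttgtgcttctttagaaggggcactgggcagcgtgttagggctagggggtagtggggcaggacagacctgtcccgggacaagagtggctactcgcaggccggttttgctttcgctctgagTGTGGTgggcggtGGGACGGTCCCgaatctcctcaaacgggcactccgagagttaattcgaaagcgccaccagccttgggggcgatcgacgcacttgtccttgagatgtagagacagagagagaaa

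The window of Fgl2 held an AP-1 match 10 to 16 bases before the RefSeq start and a STAT match 28 to 36 bases before it, letters found in 6.75% and 7.02% of all 32851 windows of this length. The GENCODE start lies upstream of the RefSeq one, within the STAT match, and the AP-1 match lies after it. The window of Ebi3 held a pair of overlapping NF-kB matches 34 to 44 bases before the start, a motif so loose that 45.8% of all windows hold it. The intronic window of Il12a held overlapping NF-kB matches and a RUNX match, the latter found in 14.0% of windows, and its upstream window held no match to any of the 10. The intronic window had 15 CG pairs against 2 in the upstream one, beside a median of 6 over all windows. Entpd1, Nrp1 and Nt5e, the 3 genes with the lowest ratios, also have windows, and those of Nrp1 and Nt5e held NF-kB matches while both of Entpd1 held the TGACG core. The windows of Nrp1 and Nt5e lie wholly after the GENCODE starts of these genes. Il10, Adora2a and Penk were not matched. Of all windows, 17.8% hold the TGACG core, 1.55% the whole cAMP element, 12.4% the TATA box, 2.98% the IRF motif, 3.17% the forkhead motif and 6.02% the E-box. A match is a string of letters and not a bound site, and FPKM per gene do not say which start was used.

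The deposited values hold no read counts, so reads were estimated from FPKM and transcript length. At an effective length of 1 kb, 1 read was worth 0.0964 FPKM in spleen against 0.0849 in lung. The estimates summed to 9648380 and 12634100 reads over the 23016 symbols with a matched length. The 9 genes rested on 14 to 3979 estimated reads in spleen and on 107 to 6460 in lung. For all 9 genes the exact 95% interval of the ratio, from counting error alone, lay above 1 on the deposited scale, and for Fgl2 and Il12a it lay above 2. The share of all symbols with such intervals was not computed. With many reads an interval leaves out 1 even at a small ratio, as for Nrp1 at 1.19 (1.12 to 1.27). These intervals compare 2 libraries and not the tissues, since they hold neither the variation between mice nor that of amplification.

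The markers of other cells were present in these sorted cells and differed between the libraries. T cell markers were alike, with 10 of 10 within 2-fold and a sum of 4555 FPKM in spleen and 4393 in lung. The 6 Treg markers summed to 953 and 1092 FPKM, with 2 over 2-fold higher in lung, 1 over 2-fold lower, 3 between and a median log2 ratio of -0.30. Ctla4 and Foxp3 were higher, whereas Lrrc32 (2.28-fold), Izumo1r (1.61-fold) and Il2ra (1.51-fold) were lower and Ikzf2 was at 41.96 and 41.62 FPKM. Foxp3 had 18.7 FPKM in the splenic library and 41.8 in the lung library, 2.23-fold (2.04 to 2.44). Of 10 macrophage markers, all were higher in lung on the deposited scale and 7 were over 2-fold higher, and with the rescaling to TPM Csf1r and Mrc1 were lower (with the Foxp3 ratio set to 1, Adgre1 also). Their sum was 676 FPKM in spleen and 27250 in lung, and without Lyz2 it was 300 and 2303. None of the 10 was at 0 in either library. Of 6 dendritic cell markers, 4 were higher in lung (sum 10.5 and 53.5 FPKM). Flt3 was lower there (1.43 and 0.172 FPKM, 8.27-fold), and Clec9a was at 0 there. Of 6 neutrophil markers, 4 were higher in lung (424 and 1173 FPKM), with Mpo and Elane at 0 there. All 6 B cell markers were lower in lung (253 and 132 FPKM). The 6 fibroblast markers summed to 0.290 FPKM in spleen, where 3 were at 0, and to 47.2 in lung. The 6 lung epithelial markers summed to 10.5 and 3125, of which Scgb1a1 made 3021 in lung. Of them 5 were over 2-fold higher in lung and 1, Epcam, was lower (8.75 and 1.79 FPKM, 4.89-fold). The 6 endothelial markers summed to 55.4 and 40.8. Pecam1, which leukocytes also express, made 54.8 FPKM of this in spleen and 31.7 in lung. Of the other 5, Cldn5 (0.160 and 6.54 FPKM) and Vwf (0.425 and 2.03) were higher in lung, Cdh5 (0.382) and Tek (0.235) were above 0 only in lung, and Tie1 was at 0 in both. The part of these other cells in the ratios of the 9 genes was not tested. In a bulk library more cells of a type cannot be told apart from more RNA of a gene per cell.

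Among the cytokine genes, Il10 measured 8.17 FPKM in spleen but 14.8 in lung, from 93 and 192 estimated reads. The lung value was 1.81-fold higher (1.41 to 2.36). It lies on chromosome 1 of GRCm38 (mm10) from 131019845 to 131024974 on the plus strand and has 5 exons. Although IL-10 is among the best known products of Tregs, its transcript was one of the scarcer of the 9, in the 8th place of the order in both libraries. Among the 3989 symbols with a mean of 5 to 20 FPKM, 14.1% had a ratio as high.

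The subunit genes of IL-35 were unequal in level and in ratio. Ebi3 (chromosome 17, 55952640 to 55957022, plus strand, 5 exons) had 24.4 FPKM in spleen against 49.9 in lung, 2.04-fold higher (1.75 to 2.38), from 240 and 556 estimated reads. Its interval held 2, so counting error alone does not place it on one side of the 2-fold line. Il12a (chromosome 3, 68690644 to 68698547, plus strand), whose protein is also a subunit of IL-12, measured 1.27 FPKM in spleen but 8.44 in lung. That is 6.67-fold higher, with a wide interval of 3.84 to 12.7, because the splenic value rested on 14 estimated reads against 107 in lung. Among the 2937 symbols with a mean of 1 to 5 FPKM, 14.4% had a ratio as high as Il12a. In this range 30.4% were over 2-fold higher and 25.6% over 2-fold lower, so ratios of this size were not rare within it. The mean of Il12a lies near the upper edge of the range. In the next range, of 5 to 20 FPKM, 12.0% were over 2-fold higher and 15.2% over 2-fold lower. Per length of transcript, the level of Ebi3 was 19.3 times that of Il12a in spleen and 5.92 times in lung. The Ebi3 transcript shares 270 of its 1154 exon bases with the antisense gene Gm16712, listed at 3.27 and 6.28 FPKM. The kit does not mark strand, so the reads of these genes cannot be told apart in the shared stretch.

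These proteins can also pair with others of the IL-12 family, whose genes were at low levels. Il12b, the partner of Il12a in IL-12, stood at 0.504 FPKM (spleen) and 1.29 (lung). Il27, whose product pairs with that of Ebi3 in IL-27, was at 0.194 and 2.22 FPKM, the former about 1.64 reads, and Il23a was at 0.0838 and 0. Il12b and Il27 reached 1 FPKM in lung and were both over 2-fold higher there, from about 25.2 and 21.3 reads. These 3 were picked after their values were seen. In both libraries Ebi3 thus exceeded every other gene of the family that was measured.

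Of 6 receptor chains for IL-10 and the IL-12 family, 1 was over 2-fold higher in lung, 1 over 2-fold lower and 4 between. Il10ra, the ligand-binding chain for IL-10, was at 38.6 and 51.9 FPKM, 1.34-fold higher (1.25 to 1.44) on the deposited scale and slightly lower after the rescaling to TPM. Il6st, which encodes gp130, a shared chain used by IL-35 and IL-27, was 42.5 FPKM in spleen and 18.1 in lung, 2.35-fold lower (2.22 to 2.49). The other IL-35 chain, Il12rb2, was low in both, at 0.669 and 1.52 FPKM. Of 6 transcription factor genes known to act at the Il10 locus, all were higher in lung on the deposited scale, and 4 were over 2-fold higher. With the rescaling to TPM Ahr was lower, and with the Foxp3 ratio set to 1 Ahr, Maf and Batf were. The 4 were Prdm1 (5.79 and 16.03 FPKM, 2.77-fold), Nfil3 (21.8 and 54.7, 2.51-fold), Irf4 (6.57 and 16.2, 2.46-fold) and Batf (117 and 244, 2.08-fold), each with a ratio above the 1.81 of Il10. In the whole list of 18 partner genes, 17 reached 1 FPKM, of which 7 were over 2-fold higher and 1 lower. With the rescaling to TPM these became 2 and 2, and with the Foxp3 ratio set to 1 they became 1 and 5.

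Both ectoenzyme genes of the adenosine route were expressed in both tissues, and their ratios were small. Nt5e (chromosome 9, 88327197 to 88372092, plus strand, 9 exons) was the highest of the 9 genes, at 101 FPKM in spleen and 145 in lung, 1.43-fold higher (1.37 to 1.49), from 3979 and 6460 estimated reads. It ranked 973 among all symbols in spleen and 845 in lung. Entpd1 (chromosome 19, 40612366 to 40741602, plus strand, 10 exons) was at 13.1 and 15.8 FPKM, 1.20-fold higher (1.06 to 1.37), and with the rescaling to TPM it was lower in lung, at a log2 ratio of -0.16. Per length, the level of Nt5e was 7.73 times that of Entpd1 in spleen and 9.18 times in lung, so the transcript of the second step was in excess over that of the first in both. Entpd1 has transcripts of 2409 and 4221 nt, which moves its estimate between 299 and 546 reads in spleen and between 409 and 746 in lung, but not its ratio.

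Adora2a, the receptor gene (chromosome 10, 75316877 to 75334784, plus strand, 3 exons), was at 9.70 FPKM in the spleen and 15.8 in the lung. The lung value was 1.63-fold higher (1.39 to 1.92), from 240 and 444 estimated reads. Among symbols of 5 to 20 FPKM, 16.9% had a ratio as high. Of the other 3 adenosine receptor genes, Adora1 was listed at 0 in both libraries and Adora3 at or near 0. Adora2b, named here after its value was seen, was at 0.236 FPKM in spleen, about 4 reads, and 6.39 FPKM in lung, about 123 reads. This is 27.1-fold higher (10.3 to 101). Adora2a remained the highest receptor gene in both tissues. Adora2b is known in macrophages and epithelium as well as in T cells, and the part of other cells in its value was not tested.

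Genes tied to adenosine removal and transport lay mostly on the other side, though the 2 with the highest levels differed little. Of 7 such genes, all of which reached 1 FPKM, 2 were over 2-fold lower in lung, none was over 2-fold higher, and 1, Pnp, was higher. With the rescaling to TPM Ada and Slc28a2 also passed 2-fold lower, and with the Foxp3 ratio set to 1 Pnp was lower. Ada, the enzyme that turns adenosine to inosine, had 7.81 FPKM in spleen against 4.15 in lung, 1.88-fold lower (1.40 to 2.57). Dpp4, whose product CD26 holds adenosine deaminase at the cell surface, was at 35.9 and 16.6 FPKM, 2.17-fold lower (2.01 to 2.35). The other past 2-fold was the transporter Slc29a2, named here after its values were seen, at 1.11 FPKM and 0. Slc29a1 (66.0 and 51.4 FPKM, 1.28-fold lower) and Adk (57.1 and 50.6 FPKM, 1.13-fold lower) had the highest levels of the 7 and lay within 2-fold. The median log2 ratio of the 7 was -0.91, whereas Nt5e, Entpd1 and Adora2a were at 0.52, 0.27 and 0.70. A common scaling of the libraries does not alter this difference. The part of other cells in these values was not tested.

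Of the 30 other genes of adenosine metabolism and signalling, 24 reached 1 FPKM, of which 7 were over 2-fold higher in lung and 3 lower. With the rescaling to TPM the numbers became 5 and 5, and with the Foxp3 ratio set to 1 they became 4 and 11. Those over 2-fold higher with at least 10 FPKM were Bst1, Crem and P2rx4. Bst1, an ectoenzyme of NAD, was at 0 and 17.9 FPKM. On the deposited scale this is at least 164-fold higher in lung, against the 3 reads that a count of 0 allows. Crem, a factor that cAMP signalling induces, was at 14.1 and 197 FPKM (14.0-fold), and P2rx4, an ATP-gated channel, at 27.5 and 95.4 FPKM (3.47-fold). Only Dpp4 was over 2-fold lower at this level. Crem was the most abundant of them in lung, and its 2963 estimated reads there stand against 186 in spleen. The macrophage and fibroblast markers were also higher in lung on the deposited scale, and the part of other cells in these values was not tested. With the rescaling to TPM the 24 genes had a median log2 ratio of -0.22, beside -0.40 for all symbols. With the Foxp3 ratio set to 1 these medians were -0.95 and -1.13.

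**Figure D2:**
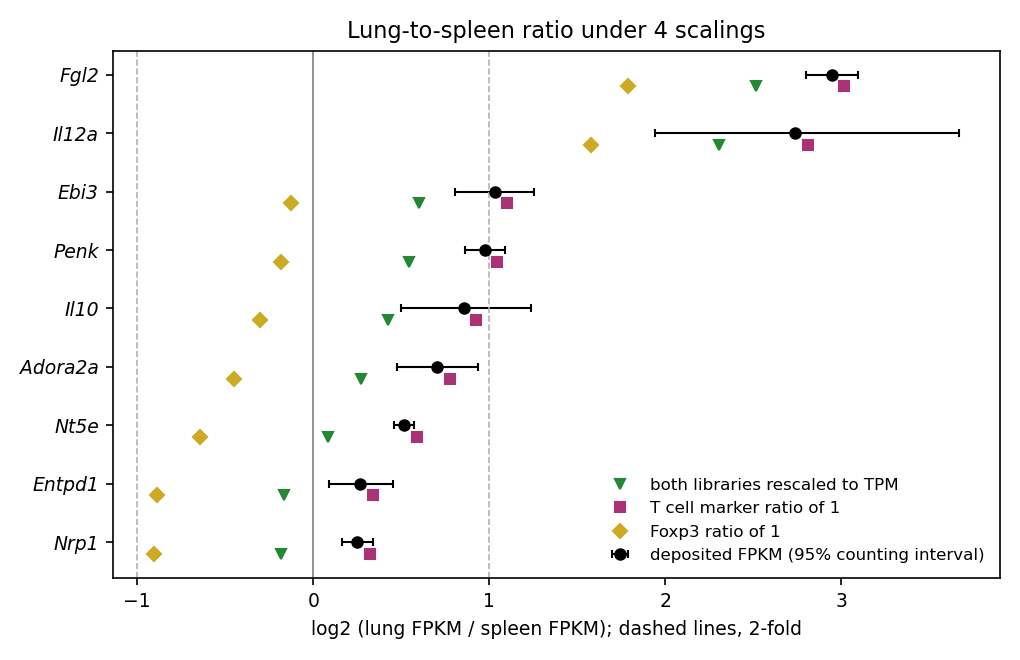
Log2 ratio of lung to spleen for each gene on the deposited scale (black, with 95% counting intervals), after rescaling both libraries to TPM (green), after setting the median ratio of T cell markers to 1 (purple) and after setting the ratio of Foxp3 to 1 (yellow). Fgl2 and Il12a lie beyond the dashed 2-fold line under all 4 scalings, Entpd1 and Nrp1 fall to -0.16 and -0.18 under TPM, and 7 of the 9 genes lie below 0 relative to Foxp3. The median of all symbols relative to Foxp3 is -1.13.

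Fgl2, the secreted fibrinogen-like suppressor, had the highest ratio of the 9. It lies on chromosome 5 from 21372642 to 21378374 on the plus strand, has 2 exons, and sits within the span of Ccdc146 on the opposite strand without sharing exon bases. It measured 11.5 FPKM in spleen but 88.4 in lung, from 426 and 3727 estimated reads, and was 7.70-fold higher in lung (6.97 to 8.54). It held the 6th place of the 9 in spleen and the 3rd in lung. Among the 2292 symbols with a mean of 20 to 50 FPKM, 2.31% had a ratio as high. The mean of Fgl2 lies at the upper edge of this range, and the share was not computed for the range above. Over 2-fold higher were 8.42% of symbols in this range and 10.2% in that of 50 to 150 FPKM. Fgl2 is also made by macrophages, whose marker sum moved the same way as given above, and their part in the Fgl2 value was not tested. The ratios of the 10 macrophage markers ran from 1.14 for Csf1r to 66.8 for Chil3.

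The genes of receptors that bind Fgl2 were higher too. Fcgr2b stood at 7.01 FPKM (spleen) and 85.9 (lung), 12.3-fold (10.4 to 14.4), and Fcgr3 at 18.03 and 185 FPKM, 10.3-fold (8.92 to 11.9). Both are Fc receptor genes of macrophages and other myeloid cells. The macrophage markers above were also higher in lung on the deposited scale, and the part of other cells in these values was not tested. Lag3, the inhibitory receptor that binds the Fgl2 relative Fgl1, was 4.62 FPKM in spleen and 1.04 in lung, 4.44-fold lower (2.75 to 7.45), from 86 and 22 estimated reads.

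Nrp1 (chromosome 8, 128358604 to 128503363, plus strand, 17 exons) had the lowest ratio of the 9, the one nearest to 1 on the deposited scale. With the rescaling to TPM that of Nt5e was nearest to 1, and with the Foxp3 ratio set to 1 that of Ebi3 was. Nrp1 was at 50.2 FPKM in the spleen and 59.7 in the lung, 1.19-fold higher (1.12 to 1.27), from 1763 and 2383 estimated reads, and with the rescaling to TPM it was lower in lung, at a log2 ratio of -0.18. Among the 1458 symbols with a mean of 50 to 150 FPKM, 43.9% had a ratio as high. Nrp1 is also expressed by plasmacytoid dendritic cells and endothelium. The 4 markers of the former summed to 22.9 FPKM in spleen and 8.39 in lung, where Klk1 was at 0, Siglech and Pacsin1 were lower and Cox6a2 was higher (2.77-fold, 1.20 to 7.99). Of the 6 endothelial markers, Cldn5, Vwf, Cdh5 and Tek were higher in lung, as given above, and the part of either cell type in the Nrp1 value was not tested. Of 18 partner genes of Fgl2 and Nrp1, 12 reached 1 FPKM, 7 were over 2-fold higher and 2 over 2-fold lower, and with the rescaling to TPM 5 were higher and 2 lower (5 and 4 with the Foxp3 ratio set to 1).

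Penk was the second most abundant of the 9 genes in both tissues. It lies on chromosome 4 from 4133531 to 4138819 on the minus strand and has 2 exons. It had 69.1 FPKM in spleen against 136 in lung, 1.97-fold higher (1.82 to 2.13), from 889 and 1985 estimated reads, just under the 2-fold line. Among symbols of 50 to 150 FPKM, 10.9% had a ratio as high. In all, 233 of its 1634 annotated exon bases overlap the antisense gene A830012C17Rik, for which no value is listed under that symbol. Of 14 other genes of opioid biology, 8 reached 1 FPKM, 5 were over 2-fold higher in lung and 1 lower, and with the rescaling to TPM 4 were higher and 1 lower (4 and 2 with the Foxp3 ratio set to 1). The other opioid precursors, Pdyn and Pnoc, were listed at 0 in both libraries and Pomc at 1.45 and 2.12 FPKM, so that Penk was the abundant precursor transcript. Oprd1, the delta receptor that enkephalins prefer, was listed at 0 in both libraries. Oprm1, the mu receptor that they also bind, was at 0.0751 FPKM in spleen, about 1 read, and at 1.87 in lung, about 28.5 reads. The single partner past 2-fold with at least 10 FPKM was Ctsl, a lysosomal protease able to process the precursor, at 5.42 and 123 FPKM, 22.7-fold (18.5 to 28.0). Ctsl is a well known macrophage product. The macrophage markers were also higher in lung on the deposited scale, and the part of macrophages in the Ctsl value was not tested.

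**Figure D3:**
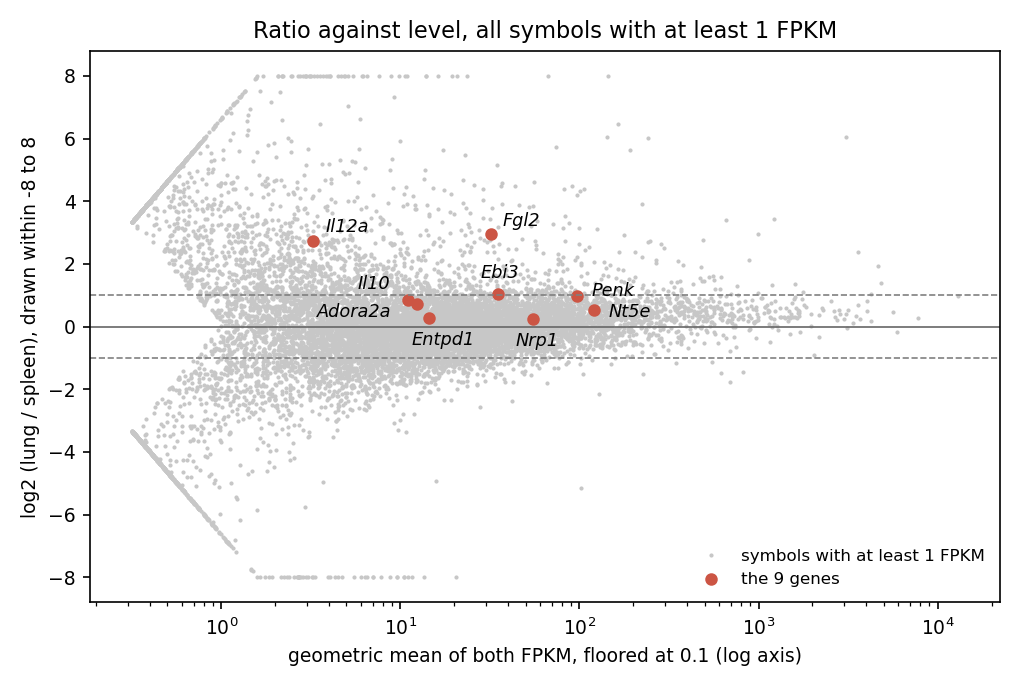
Log2 ratio of lung to spleen against the geometric mean of both FPKM on a log axis, for the 12094 symbols with at least 1 FPKM (grey) and the 9 genes (red), with values beyond the axis drawn at its limit and dashed lines at 2-fold. The 9 genes all lie above 0 on the deposited scale, with Entpd1 and Nrp1 below 0 after rescaling to TPM, and the grey points spread widest at the low levels where Il12a lies.

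By level, the order in spleen was Nt5e, Penk, Nrp1, Ebi3, Entpd1, Fgl2, Adora2a, Il10 and Il12a, and in lung it was Nt5e, Penk, Fgl2, Nrp1, Ebi3, Adora2a, Entpd1, Il10 and Il12a. FPKM is a level per length of transcript, so these orders compare genes within a library. The counting intervals of neighbours overlapped between Entpd1 and Fgl2, Fgl2 and Adora2a, and Adora2a and Il10 in spleen. In lung they overlapped between Nt5e and Penk, and among Adora2a, Entpd1 and Il10. The spread between mice is not known for either order.

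Set against Foxp3 within each library, 7 of the 9 genes had a lower level in lung and 2 a higher one. The level of Nt5e was 5.41 times that of Foxp3 in spleen and 3.47 times in lung, and that of Nrp1 was 2.68 and 1.43 times. Penk (3.69 and 3.25 times) and Ebi3 (1.30 and 1.19 times) changed less. Il12a went from 0.0675 to 0.202 times the level of Foxp3 and Fgl2 from 0.613 to 2.12 times. This comparison was added after the values had been seen, and the reporter is inserted at the Foxp3 locus.

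**Figure D4:**
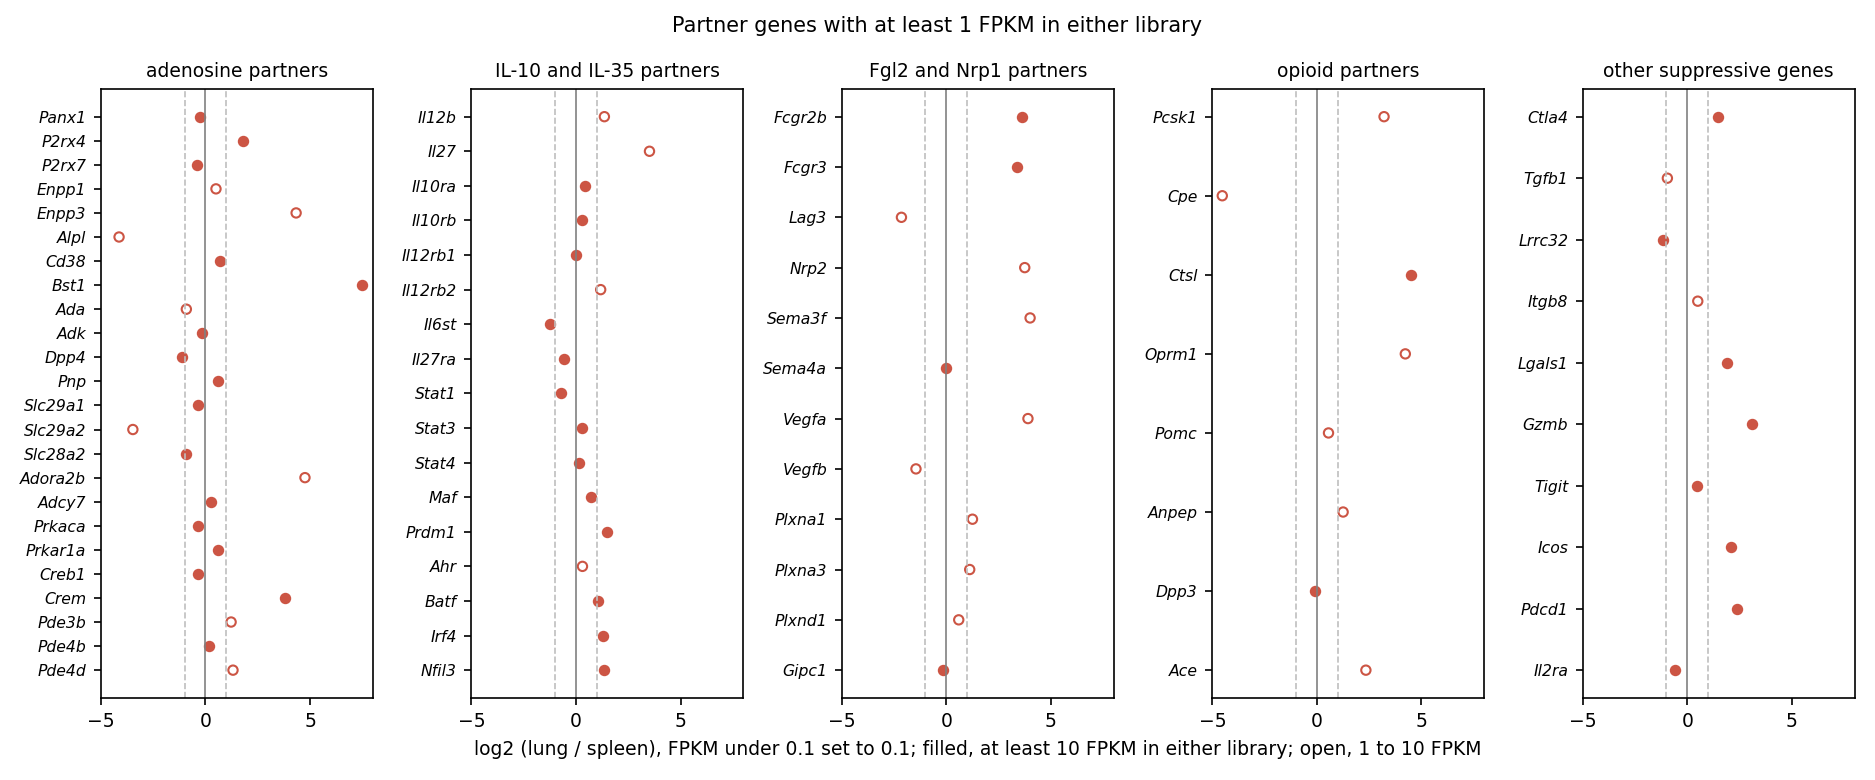
Log2 ratio of lung to spleen for the partner genes with at least 1 FPKM in either library, by list, with filled points for at least 10 FPKM and open points for 1 to 10 FPKM; dashed lines mark 2-fold. Crem, P2rx4, Fcgr2b, Fcgr3 and Ctsl are filled points right of the 2-fold line, whereas Dpp4, Il6st and Lrrc32 are filled points left of it.

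Other suppressive genes of Tregs were set beside the 9. Of 10 such genes, 7 were higher in lung, 5 over 2-fold higher and 1 over 2-fold lower, with a median log2 ratio of 0.97. With the rescaling to TPM, 5 were over 2-fold higher and 3 lower, and with the Foxp3 ratio set to 1, 2 and 3. Gzmb, a cytotoxic protease, measured 7.51 FPKM in spleen but 63.1 in lung (8.40-fold), and Pdcd1, which encodes PD-1, at 73.2 and 378 (5.17-fold). Icos, a costimulatory receptor tied to effector Tregs, was at 59.2 and 248 FPKM (4.18-fold), and Lgals1, a secreted galectin, at 248 and 929 (3.75-fold). Ctla4, the inhibitory receptor that binds CD80 and CD86, was also past 2-fold. Lrrc32, the anchor of latent TGF-β on Tregs, was at 69.4 and 30.4 FPKM, 2.28-fold lower (2.13 to 2.44). Tgfb1 (7.88 and 4.05 FPKM, 1.94-fold) and Il2ra (89.4 and 59.1 FPKM, 1.51-fold) were also lower in lung. Both passed 2-fold lower with the rescaling to TPM. The macrophage and fibroblast markers were higher in lung on the deposited scale, and the part of other cells in the values of these 10 genes, Lgals1 among them, was not tested.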

How the data were processed

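GFP+CD4+ cells pooled from 3 BLM-treated FDG mice per tissue were profiled by bulk RNA-seq (SMART-Seq HT cDNA, 75-base single-end reads), and samples were grouped by their tissue labels. Mapping to mm10 was done by the authors with TopHat2 2.1.1, Bowtie2 2.2.8 and SAMtools 0.1.18 and the deposited FPKM were made with Cuffdiff 2.2.1. The gene annotation, Cuffdiff options and any scaling between the libraries are not given in the sources used here. Full-length cDNA was amplified by PCR without molecular identifiers, so read copies are not independent molecules.

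Values under 0.1 FPKM were set to 0.1 and lung was divided by spleen. Backgrounds cover symbols that reach 1 FPKM in either library. Reads were estimated with GENCODE M21 transcripts tied to RefSeq (median length per gene, fragments of mean 200, SD 80 and at least 73 nt). The value of 1 read was the product of FPKM and effective length shared within 1% by the most single-length genes of at least 1500 nt. Of single-length genes of any length with 1 to 10 reads, 72.9% in spleen and 75.0% in lung fell within 0.1 of a whole number. Ratio intervals are exact (Clopper-Pearson) at 95%, and a count of 0 was taken to allow 3 reads. Members and lists were chosen with earlier results of these data known. Partner genes are named where they reach 10 FPKM and 2-fold (at most 4 per direction and list) or act directly on a product of the 9 genes; other partner and marker genes were named after their values were seen. Alternatives were other floors, pseudocounts, thresholds and scalings of the libraries. Calibration and counting were run on data simulated as Poisson reads with the same transcript lengths and fragment model. Such data hold no amplification copies, so the run checks the arithmetic and not the fit to these libraries. Versions were matplotlib 3.10.9, scipy 1.17.1, pandas 2.3.3, numpy 2.4.6 and Python 3.11.15.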

Additional observations from a re-analysis of the deposited data

How the results depend on the processing

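No paired analysis was possible because each tissue has 1 library. The count of 3 genes over 2-fold higher in lung became 2 with the rescaling to TPM, with equal upper quartiles, with the Foxp3 ratio set to 1 and with a threshold of 3-fold, and 4 with the T cell marker ratio set to 1. Shares of all symbols past the same lines were not computed for these settings, so these counts have no background. The median log2 ratio of all symbols was -0.04 with equal upper quartiles and 0.10 with the T cell marker ratio set to 1. The counts of genes over 2-fold lower and over 20-fold higher were 0 under every floor, pseudocount and scaling tried. The median log2 ratio of 0.86 became 0.42 with TPM and -0.30 with the Foxp3 ratio set to 1, a setting added after the values were seen. The median of all symbols became -0.40 and -1.13 under these settings. Floors and pseudocounts left the median of the 9 genes between 0.78 and 0.86. Ebi3 turned from 1.03 to -0.13 with the Foxp3 ratio set to 1. Without the filter at 1 FPKM, 11.0% of symbols were over 2-fold higher and 1.62% over 20-fold higher. With 1 pooled library per tissue, variation between mice limits every ratio, and the 14 splenic reads of Il12a limit its size.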
